A study of Mus musculus with 18 samples.

Results

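A list of 8 genes grouped as restraining nuclear factor kappa B (NF-kB) signalling from within the responding cell was followed in bone marrow-derived macrophages (BMDMs) from Il10-/- mice. The genes, Tnfaip3, Tnip1, Tnip3, Irak3, Cyld, Nfkbid, Sigirr and Ier3, were taken as a list by symbol from the 24485 genes measured, and all 8 were found. RNA-seq was carried out on 18 libraries in 6 groups of 3. Every culture came from an Il10-/- mouse on the C57BL/6J background, which in the methods of the study was a 12-week-old male, so all 6 groups share the loss of Il10. A pretreatment of 12 hours consisted of 500 nM (+)-JQ1, of 10 ng/mL IL-10, or of nothing. Lipopolysaccharide (LPS, 50 ng/mL) or PBS was then present for the last 4 hours. The groups are called unstimulated, JQ1, IL-10, LPS, LPS + JQ1 and LPS + IL-10. The labels describe the cells that received no pretreatment as untreated, whereas the methods name a vehicle control before LPS. In the comparison of LPS with unstimulated cells, the effect of a vehicle thus cannot be told apart from that of LPS. A vehicle that carried JQ1 or IL-10 sets the same limit on their comparisons with unstimulated cells. The interactions use the unstimulated group too and share this limit. The comparisons address how BET inhibition by (+)-JQ1 and added IL-10 change the macrophage response to LPS. (+)-JQ1 is a small molecule that occupies the bromodomains through which BET proteins bind acetylated histones.

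LPS binds Toll-like receptor 4 (TLR4), and the adaptor MyD88, the IRAK kinases and ubiquitin chains built by TRAF6 and other ligases pass the signal to the IKK complex, which marks the cytoplasmic IkB proteins for destruction and releases NF-kB to the nucleus. The listed genes are grouped as acting against this route at successive steps, which was not measured here. Sigirr encodes a receptor of the interleukin 1 receptor family that dampens TLR and IL-1 receptor signalling, and Irak3 encodes IRAK-M, a largely kinase-inactive member of the IRAK family. Tnfaip3 encodes a ubiquitin-editing enzyme, Tnip1 encodes a ubiquitin-binding partner of that enzyme, Tnip3 is a relative of Tnip1, and Cyld encodes a deubiquitinase. Nfkbid encodes a nuclear IkB protein that acts on NF-kB at its target genes, and Ier3 is an immediate early gene whose product has been tied to cell survival and to restraint of NF-kB. Several of these genes are themselves NF-kB targets in macrophages, which is what makes them feedback inhibitors.

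The promoters of these genes were searched for the kappa B consensus, because it is the sequence that NF-kB binds. RefSeq promoter sequences (build GRCm38.p6) were held for 7 of the 8 genes and 11 start sites, and the 250 bases before each start were read on both strands. The consensus was present for 6 of the 7 genes, at 6 of the 11 starts, and in 7.25% of all 32851 promoters of the same table. The stretches around the matches are shown 5′ to 3′ on the strand of the gene, with the matched bases in capitals.
Tnfaip3: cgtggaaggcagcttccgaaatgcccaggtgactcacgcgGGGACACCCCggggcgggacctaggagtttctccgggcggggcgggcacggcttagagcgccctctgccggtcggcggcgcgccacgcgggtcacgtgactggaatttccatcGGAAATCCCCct
Tnip1: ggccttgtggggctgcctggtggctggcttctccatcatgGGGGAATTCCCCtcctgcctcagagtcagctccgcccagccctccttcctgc
Tnip3: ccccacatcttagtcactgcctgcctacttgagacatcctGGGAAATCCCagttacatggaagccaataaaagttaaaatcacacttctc
Cyld: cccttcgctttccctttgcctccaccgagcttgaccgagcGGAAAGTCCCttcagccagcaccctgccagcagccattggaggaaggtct
Nfkbid: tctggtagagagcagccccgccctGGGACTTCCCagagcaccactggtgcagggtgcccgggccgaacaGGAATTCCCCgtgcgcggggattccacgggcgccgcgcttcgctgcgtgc
Ier3: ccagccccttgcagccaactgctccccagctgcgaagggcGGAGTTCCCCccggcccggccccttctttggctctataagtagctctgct
These stretches lie at chr10:19015411-19015575 (minus strand) for Tnfaip3, chr11:54962947-54963038 (minus) for Tnip1, chr6:65590304-65590393 (plus) for Tnip3, chr8:88696833-88696922 (plus) for Cyld, chr7:30422156-30422274 (plus) for Nfkbid and chr17:35821581-35821670 (plus) for Ier3. Tnfaip3 and Nfkbid each carried 2 separate matched positions, and the 12 capital bases of Tnip1 hold 3 overlapping ones. At the Tnfaip3 start the AP-1 motif TGANTCA, found in 6.75% of all promoters, also occurred once, separated from the first kappa B match by 4 bases. The interferon-stimulated response element, in 2.98% of all promoters, was in none of the 11 windows, and TATAAA, in 12.4%, was in 2 of them. Irak3 had no kappa B match in the windows of its 2 starts, and Sigirr had no entry in the table. A match is a description of letters in the window, and binding was not measured here.

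The libraries held between 6781952 and 28289498 expected counts, and the normalised counts given below are these counts divided by the size factor of the library. Transcript levels of different genes are compared only in TPM, the relative abundance of transcripts after gene length is taken into account. Reads of the targeted gene Il10 were present in every library, at 27.1 to 177 normalised counts, with means of 32.5 ± 5.06 in unstimulated, 63.2 ± 10.8 in LPS, 141 ± 22.8 in LPS + JQ1 and 155 ± 21.4 in LPS + IL-10 cells (SD, n = 3). The gene totals do not show whether these reads came from the disrupted portion of the gene. All 8 macrophage markers examined were expressed in every library, with a summed level of 23249 to 24813 TPM in unstimulated and 12696 to 13871 TPM in LPS cells, whereas the markers of 6 other cell types summed to at most 10.29 TPM for any type in any library. The macrophage sum was 28767 to 28916 TPM in JQ1 and 18008.5 to 20636 TPM in LPS + JQ1 cells. Lyz2 alone, the largest part of it, ranged from 9722 to 24852.5 TPM over the libraries. B cell markers summed to 2.34 to 5.13 TPM in unstimulated and 0.20 to 0.50 TPM in JQ1 cells, and neutrophil markers to 3.99 to 10.1 TPM and 0.590 to 1.70 TPM, and their part in the results was not tested. The replicate 3 libraries of LPS and LPS + IL-10 stood further from the other replicates of their groups (chi-square per degree of freedom 24.2 to 28.3) than any other pair of replicates (3.97 to 10.5), and values without replicate 3 are given where this mattered.

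After LPS, 7 of the 8 genes rose, against 31.6% of the 14965 genes tested that were higher and 64.5% that changed in either direction (DESeq2 adjusted p under 0.05). The median log2 fold change was 2.08 over the 7 detected genes, 2.01 with the fitted value of Sigirr included, and -0.07 over all tested genes. The sizes of the rises by LPS given below depended on the scaling. With libraries scaled to their total counts, the median over 12251 expressed genes was -0.997. By limma on log2(TPM + 1) it was -0.70 over 11322 of them. Of the 7 rises, only that of Cyld lost its call, under total-count scaling. The sizes of the changes by JQ1 during LPS depended on the scaling as well. Their median over the 12251 expressed genes was -0.10, but 0.28 with total-count scaling. By limma on log2(TPM + 1) it was 0.17 over the 11322. The intervals given below do not cover this dependence. In cells that had first received JQ1 the same 7 genes rose after LPS, where 27.6% of genes were higher and 58.6% changed. All 7 also rose in cells that had received IL-10, where 33.2% were higher and 67.0% changed. The remaining gene, Sigirr, was near the limit of detection throughout. In bulk RNA, fewer cells that express a gene and less of its RNA per cell cannot be told apart, and this applies to every value below.

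**Figure D1:**
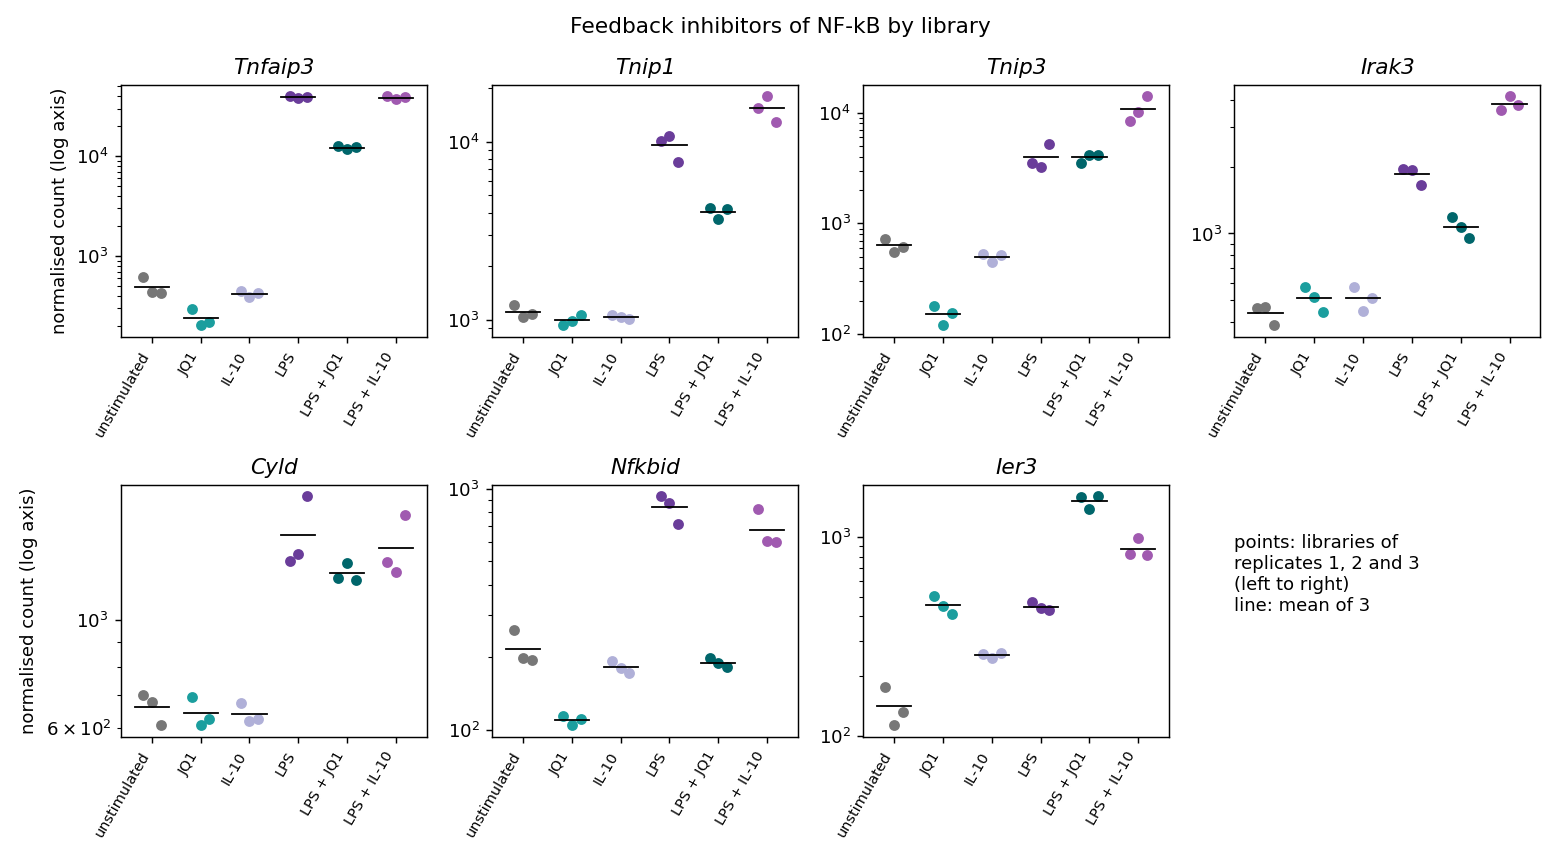
Normalised counts (log axis) of the 7 detected genes in each of the 18 libraries, by group; points are replicates 1 to 3 from left to right and the line is the mean of 3. Tnfaip3 was at 38273 to 39750.5 in LPS and 11694 to 12601 in LPS + JQ1 libraries, while the LPS + JQ1 libraries were the highest of all for Ier3, at 1387 to 1611.

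The summed level of the 8 genes was 170.9 ± 23.7 TPM in unstimulated cells and 1274 ± 58.7 TPM after LPS (SD, n = 3). Pretreatment with JQ1 left it at 781 ± 17.9 TPM after LPS, and pretreatment with IL-10 at 1831 ± 152 TPM. The make-up of this sum moved with the treatment, because Tnfaip3 supplied 9.32% ± 0.886 of it in unstimulated cells and 58.1% ± 1.71 in LPS cells, but 36.5% ± 0.475 in LPS + JQ1 and 43.3% ± 2.45 in LPS + IL-10 cells. In unstimulated cells the highest of the genes was instead Tnip1 at 59.1 ± 6.68 TPM. The next were Tnip3 at 24.3 ± 3.95 TPM, Irak3 at 21.6 ± 1.81 TPM and Ier3 at 21.6 ± 5.48 TPM, whose ranges overlapped.

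Tnfaip3 (chr10:18720716-18735463, minus strand, mm9), the ubiquitin-editing enzyme, had the steepest response to LPS of the 7 detected genes. Its normalised counts were 618, 441 and 422 in unstimulated libraries and 39750.5, 38273 and 39029.6 in LPS libraries in the order of replicates 1 to 3, with no overlap. This was a 78.7-fold rise (log2 fold change 6.30 ± 0.12, SE). With JQ1 before LPS the counts were 12601, 11694 and 12270.3, all far above unstimulated and all below LPS. JQ1 therefore left 31.2% of the LPS level in normalised counts (95% interval 26.6% to 36.7%, log2 fold change -1.68 ± 0.12, adjusted p = 9.28e-45). In TPM the means were 285 ± 3.03 in LPS + JQ1 and 740 ± 52.7 in LPS cells, a milder decrease. Without LPS the JQ1 counts of 293, 202 and 219.8 were also all below the unstimulated ones, at 48.2% of their level (log2 fold change -1.05 ± 0.13, adjusted p = 4.65e-14). The decrease during LPS exceeded that without LPS, with an interaction of -0.62 ± 0.18 on the log2 scale (adjusted p = 0.00172). With libraries scaled to their total counts this interaction was -0.07 (adjusted p = 0.762), and by limma on log2(TPM + 1) it was -0.23 (adjusted p = 0.309), so its call depended on the scaling. IL-10 before LPS gave 39682, 37505 and 38755 counts, which overlapped the LPS libraries (log2 fold change -0.01, 95% interval -0.24 to 0.22, adjusted p = 0.960). IL-10 without LPS gave 445, 387 and 431 counts and did not pass the test (adjusted p = 0.600).

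Tnip1 (chr11:54724289-54776419, minus strand), whose product binds ubiquitin chains together with the Tnfaip3 product, had 1214, 1032 and 1085 counts in unstimulated and 10133, 10742 and 7742 in LPS libraries. All LPS libraries were above all unstimulated ones, and the rise was 8.58-fold (log2 fold change 3.10 ± 0.13, adjusted p = 3.25e-131). JQ1 and IL-10 moved Tnip1 to opposite sides of the LPS level. The LPS + JQ1 libraries had 4237, 3666 and 4168 counts, 42.2% of LPS (log2 fold change -1.25 ± 0.12, adjusted p = 1.65e-22). The LPS + IL-10 libraries had 15445, 17970.5 and 12946 counts, 1.62-fold above LPS (log2 fold change 0.70 ± 0.12, adjusted p = 5.68e-07). None of these 3 groups overlapped another. Without LPS neither treatment passed the test, with 931, 987 and 1063 counts in JQ1 and 1066, 1033 and 1014 in IL-10 libraries (adjusted p = 0.318 and 1). The log2 fold change of JQ1 alone was -0.16 (95% interval -0.41 to 0.09), and its call depended on the scaling. It passed under total-count scaling at -0.34 (adjusted p = 0.0198) and by limma on log2(TPM + 1) at -0.38 (adjusted p = 0.0073). In TPM the JQ1 libraries, at 43.0 to 49.2, lay below the unstimulated ones, at 52.4 to 65.8. Both interactions with LPS passed, at -1.08 ± 0.18 for JQ1 (adjusted p = 1.48e-08) and 0.80 ± 0.18 for IL-10 (adjusted p = 0.000310).

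Tnip3 (chr6:65540392-65584034, plus strand), a relative of Tnip1, was lowered by JQ1 without LPS, while no change by JQ1 was detected after LPS. Unstimulated libraries had 731, 555 and 617 counts and JQ1 libraries 178, 120.3 and 156. The JQ1 libraries were thus at 23.9% of the unstimulated level (log2 fold change -2.07 ± 0.20, adjusted p = 2.82e-23), the strongest decrease by JQ1 alone among the 7 detected genes. After LPS the counts were 3501, 3234 and 5159 without pretreatment and 3504, 4154 and 4185 with JQ1. These ranges overlapped, and the log2 fold change was -0.01 with a 95% interval of -0.38 to 0.36 (adjusted p = 0.987). A change within this interval, in either direction, thus remains possible. Its sign was positive under 8 of the 14 alternative settings, none of which passed the test, and without replicate 3 it was 0.19 (adjusted p = 0.311). The response to LPS was accordingly 6.24-fold without pretreatment and 26.0-fold from the lower starting level in JQ1-pretreated cells, an interaction of 2.06 ± 0.28 (adjusted p = 1.29e-12). IL-10 before LPS gave 8377, 10191 and 13997 counts, all above every LPS library and 2.74-fold higher (log2 fold change 1.45 ± 0.19, adjusted p = 7.67e-13). IL-10 without LPS gave 528, 447 and 524 counts, all below the unstimulated libraries, but did not pass the test (log2 fold change -0.35 ± 0.19, adjusted p = 0.626), and the interaction with LPS was 1.80 ± 0.27 (adjusted p = 4.28e-09).

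**Figure D2:**
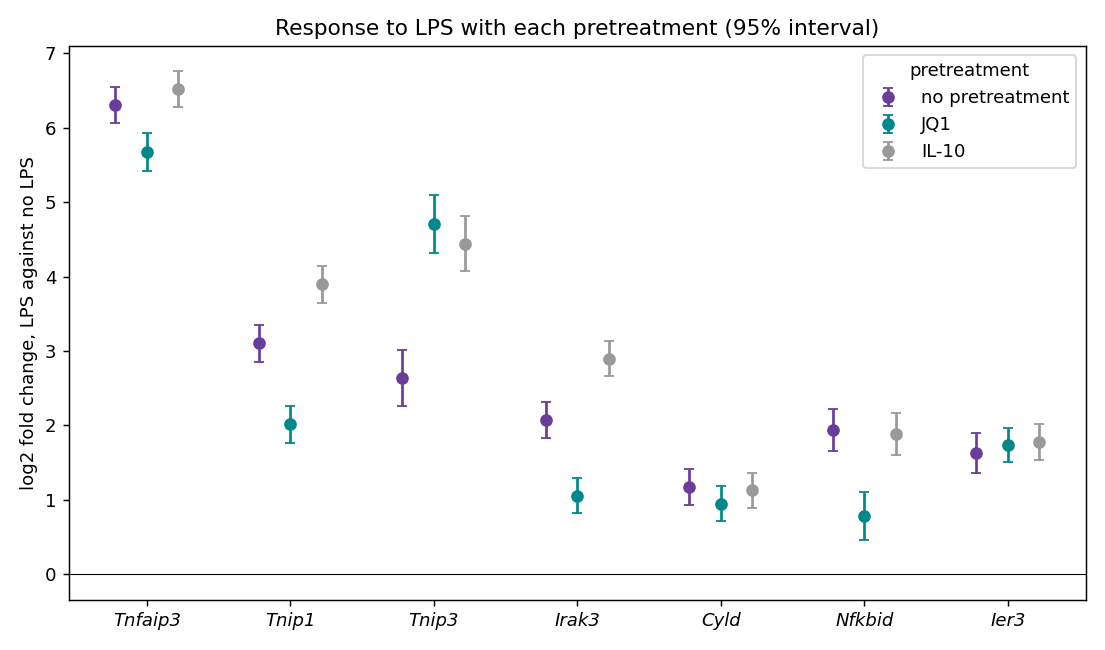
Log2 fold change of each detected gene by LPS in cells with no pretreatment, JQ1 or IL-10; bars are 95% intervals over 3 libraries a group. JQ1 lay below no pretreatment for Tnip1 (2.02 against 3.10), Irak3 (1.06 against 2.08) and Nfkbid (0.79 against 1.94) and above it for Tnip3 (4.70 against 2.64).

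Irak3 (chr10:119578704-119639186, minus strand), the inhibitory IRAK close to the receptor, had 461, 468 and 386 counts in unstimulated and 1947, 1932 and 1650.1 in LPS libraries. The groups did not overlap, and the rise was 4.22-fold (log2 fold change 2.08 ± 0.12, adjusted p = 7.24e-63). As for Tnip1, JQ1 lowered and IL-10 raised the LPS level. LPS + JQ1 libraries had 1181, 1072 and 958 counts (58.1% of LPS, log2 fold change -0.78 ± 0.12, adjusted p = 2.47e-10). The decrease was milder in TPM, with means of 38.0 ± 3.41 in LPS + JQ1 and 52.9 ± 1.80 in LPS cells. LPS + IL-10 libraries had 3577, 4135 and 3763 counts (2.07-fold, log2 fold change 1.05 ± 0.12, adjusted p = 3.28e-17). The 3 groups lay apart from each other. Without LPS, JQ1 gave 576, 519 and 445 counts and IL-10 gave 575, 446 and 512, which overlapped the unstimulated libraries and did not pass the test (log2 fold change 0.23 ± 0.13 and 0.23 ± 0.12). The interaction with LPS was -1.02 ± 0.17 for JQ1 (adjusted p = 4.41e-08) and 0.82 ± 0.17 for IL-10 (adjusted p = 7.96e-05). The latter did not pass without replicate 2 (0.67, adjusted p = 0.0948). The Irak3 gene overlaps Tmbim4 on the opposite strand by 541 bases, and reads from the shared stretch cannot be told apart.

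Sigirr (chr7:148277074-148286445, minus strand), the inhibitory receptor, was close to absent from the libraries. Its expected counts were 2, 2 and 6 in unstimulated, 1, 3 and 2 in JQ1, and 11, 4 and 7 in IL-10 libraries. They were 0, 1 and 0 in LPS, 1, 0 and 2 in LPS + JQ1 and 0, 0 and 2 in LPS + IL-10 libraries. All 9 libraries with LPS were thus below the floor of 3 counts, and no fold change is given. Its level was at most 0.470 TPM in any library.

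Cyld (chr8:91220927-91275844, plus strand), the deubiquitinase, had the smallest rise of the 7 detected genes after LPS without pretreatment. It had 699.7, 678 and 609 counts in unstimulated and 1321, 1364 and 1793 in LPS libraries, without overlap. The rise was 2.26-fold (log2 fold change 1.17 ± 0.12, adjusted p = 2.27e-21) and was 0.96 on the log2 scale without replicate 3. With total-count scaling it was 0.25 (adjusted p = 0.0695), where the median over 12251 expressed genes (10 or more counts in 3 or more libraries) moved from -0.07 to -0.997. LPS + JQ1 libraries had 1220.3, 1306 and 1208 counts and LPS + IL-10 libraries 1314, 1256 and 1636. JQ1 during LPS gave a log2 fold change of -0.26 ± 0.12 that missed the threshold (adjusted p = 0.0506). It passed with the test limited to those expressed genes (adjusted p = 0.0428) or a length offset (adjusted p = 0.0473), but was -0.08 without replicate 3 (adjusted p = 0.544) and 0.11 under total-count scaling (adjusted p = 0.477). IL-10 during LPS gave -0.09 (95% interval -0.32 to 0.15), and JQ1 and IL-10 without LPS each gave -0.04 (95% intervals -0.28 to 0.20).

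Nfkbid (chr7:31206751-31213765, plus strand), the nuclear IkB protein, had 259, 198 and 194 counts in unstimulated and 930.3, 869.6 and 713 in LPS libraries. It rose 3.84-fold (log2 fold change 1.94 ± 0.15, adjusted p = 3.98e-39). LPS + JQ1 libraries had only 198, 189 and 182 counts, none of which overlapped the LPS range. This was 22.6% of the LPS level (log2 fold change -2.14 ± 0.15, adjusted p = 4.55e-45), the strongest decrease by JQ1 during LPS among the 7 detected genes. In normalised counts Nfkbid was also the single gene of the 7 whose LPS + JQ1 libraries overlapped the unstimulated ones (log2 fold change -0.20, 95% interval -0.51 to 0.10, adjusted p = 0.261). This overlap depended on the scaling. Under total-count scaling LPS + JQ1 was below unstimulated by a log2 fold change of -0.76 (adjusted p = 1.54e-06). By limma on log2(TPM + 1) the value was -0.61 (adjusted p = 7.94e-05). In TPM the LPS + JQ1 libraries, at 9.87 to 10.7, lay below the unstimulated ones, at 14.3 to 19.8. JQ1 without LPS gave 114, 104 and 111 counts, all below the unstimulated libraries (50.3%, log2 fold change -0.99 ± 0.16, adjusted p = 8.18e-09). LPS still raised the gene 1.72-fold in JQ1-pretreated cells (log2 fold change 0.79 ± 0.17, adjusted p = 5.75e-06), and the interaction was -1.15 ± 0.22 (adjusted p = 1.25e-06). LPS + IL-10 libraries had 820.1, 605 and 599 counts, which overlapped LPS. Their log2 fold change of -0.31 ± 0.14 did not pass the test (adjusted p = 0.114), but with the replicate number as a block it was -0.32 and passed (adjusted p = 0.0117), and each LPS + IL-10 library was below the LPS library of the same number.

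Ier3 (chr17:35958629-35959868, plus strand), the immediate early gene, was the single one of the 7 detected genes that JQ1 raised. It had 177, 113 and 133 counts in unstimulated and 472, 438 and 429.7 in LPS libraries, a 3.10-fold rise (log2 fold change 1.63 ± 0.13, adjusted p = 5.68e-33). JQ1 without LPS gave 507, 452 and 412 counts, all above the unstimulated libraries and overlapping the range of LPS alone. This was a 3.18-fold rise (log2 fold change 1.67 ± 0.13, adjusted p = 2.50e-34). In TPM the JQ1 libraries did not overlap LPS alone, at 55.4 to 68.8 against 38.2 to 41.3. LPS + JQ1 libraries had 1589, 1387 and 1611 counts, all above every LPS library and 3.42-fold higher (log2 fold change 1.78 ± 0.12, adjusted p = 2.39e-49). The interaction with LPS was 0.11, with a 95% interval of -0.24 to 0.46 (adjusted p = 0.668), so no difference between the effects of JQ1 with and without LPS was detected. Under total-count scaling this interaction was 0.66 (adjusted p = 0.000983) and by limma on log2(TPM + 1) 0.57 (adjusted p = 0.0163). IL-10 also raised Ier3, to 257, 246 and 261 counts without LPS (1.77-fold, adjusted p = 2.61e-07) and to 824, 989.6 and 813 counts with LPS (1.96-fold, adjusted p = 6.80e-14). In LPS + JQ1 cells Ier3 was 10.6-fold above unstimulated cells and reached 167 ± 8.48 TPM, against 285 ± 3.03 TPM for Tnfaip3 in the same cells. In LPS cells the respective levels were 39.7 ± 1.58 and 739.98 ± 52.7 TPM.

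**Figure D3:**
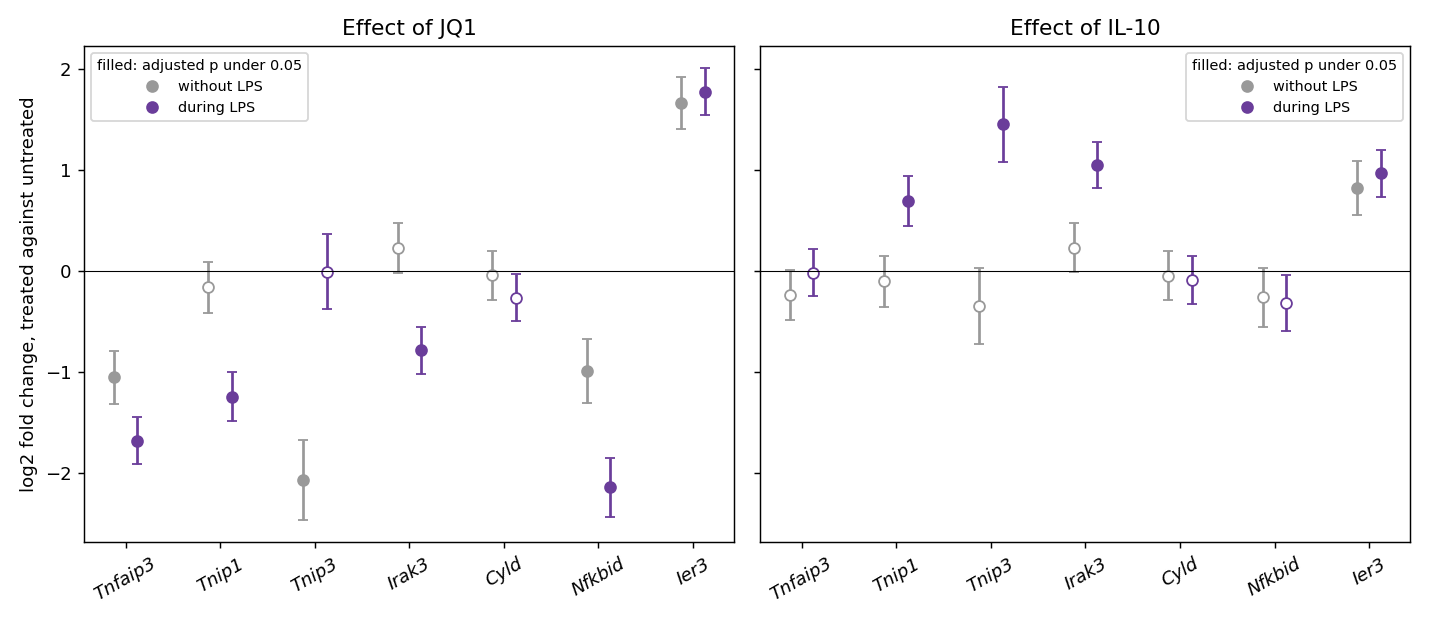
Log2 fold change by JQ1 (left) and IL-10 (right) for each detected gene without LPS (grey) and during LPS (purple); bars are 95% intervals over 3 libraries a group and filled points passed the adjusted p of 0.05. During LPS, JQ1 values ran from -2.14 (Nfkbid) to 1.78 (Ier3) and IL-10 values from -0.31 (Nfkbid) to 1.45 (Tnip3).

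JQ1 during LPS thus lowered 4 of the 8 genes (Tnfaip3, Tnip1, Irak3 and Nfkbid) and raised 1 (Ier3). Of the 14326 genes tested, 57.3% changed, with 32.9% lower and 24.4% higher. The median log2 fold change was -0.78 over the 7 detected genes and -0.52 with the fitted value of Sigirr, beside -0.11 for all tested genes. JQ1 without LPS lowered 3 (Tnfaip3, Tnip3 and Nfkbid) and raised Ier3, where 45.7% of tested genes changed, 23.7% lower and 21.9% higher. IL-10 during LPS raised 4 (Tnip1, Tnip3, Irak3 and Ier3) and lowered none, where 17.2% of the 11448 tested genes changed, 8.38% higher and 8.81% lower. With the replicate block it also lowered Nfkbid (adjusted p = 0.0117). IL-10 without LPS raised Ier3 alone, where 2.81% of genes changed and 1.80% were higher. LPS + JQ1 was above unstimulated for 6 of the 8, where 62.4% of tested genes changed and 30.1% were higher. The effect of JQ1 differed with and without LPS for 5 genes, with 4 interactions below 0 and 1 above, where 41.5% of tested genes passed, 23.8% below and 17.7% above. The effect of IL-10 differed for 3, all above 0, where 7.44% passed and 4.00% were above. These comparisons share the LPS or the unstimulated libraries and are not independent of each other.

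Set against each other during LPS, JQ1 gave lower levels than IL-10 for 5 genes and a higher level for Ier3, where 55.3% of tested genes differed, 31.6% lower and 23.8% higher. The separation was 26.0% of the LPS + IL-10 level for Tnip1 (log2 fold change -1.94 ± 0.12), 28.0% for Irak3 (-1.84 ± 0.12), 28.1% for Nfkbid (-1.83 ± 0.15), 31.5% for Tnfaip3 (-1.66 ± 0.12) and 36.4% for Tnip3 (-1.46 ± 0.19). Ier3 was 1.75-fold higher with JQ1 (0.81 ± 0.11, adjusted p = 1.04e-11). For Cyld the log2 fold change of -0.17 did not pass (95% interval -0.41 to 0.06).

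The wider pathway was described with 4 lists. Of 24 genes that carry the signal from TLR4 to the IKK complex, JQ1 during LPS lowered 17 and raised 3 (median log2 fold change -0.54), where 32.9% of all tested genes were lower and 24.4% higher. IL-10 during LPS lowered 6 and raised 2 of them (median -0.07), where 8.81% of all tested genes were lower and 8.38% higher. These background shares and the medians over all tested genes, -0.11 with JQ1 and -0.02 with IL-10, apply to each of the lists. Among them, the receptor gene Tlr4 changed by -1.89 ± 0.21 with JQ1 (adjusted p = 1.15e-17), the adaptor gene Myd88 by -1.51 ± 0.07 (adjusted p = 1.36e-100) and the kinase gene Ikbkb by -1.15 ± 0.08 (adjusted p = 1.78e-42). Of 10 NF-kB subunits and IkB proteins, JQ1 lowered 6 and raised none (median -0.46), a number called close to the 57.3% of all tested genes that changed, and IL-10 lowered 4 and raised 1 (median -0.32), where 17.2% changed. The raised one was Bcl3, a nuclear IkB protein like Nfkbid, at 0.76 ± 0.18 with IL-10 (adjusted p = 0.000237) and -0.53 ± 0.18 with JQ1 (adjusted p = 0.00635). Nfkbie and Nfkbib, which encode cytoplasmic IkB proteins, changed by -1.12 ± 0.15 and -0.66 ± 0.14 with JQ1.

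Of 15 partners and relatives of the 8 genes, JQ1 during LPS lowered 7 and raised 4 (median -0.22), beside 32.9% and 24.4% of all tested genes. IL-10 raised 6 and lowered 1 of 14 tested (median 0.38), beside 8.38% and 8.81%. Optn, a ubiquitin-binding relative of the NF-kB regulator IKK gamma, shared the directions of Tnip1 and Irak3, at -0.80 ± 0.10 with JQ1 (adjusted p = 4.27e-15) and 0.94 ± 0.09 with IL-10 (adjusted p = 1.11e-22). Otud7b, a deubiquitinase related to Tnfaip3, went the other way, at 1.05 ± 0.13 with JQ1 (adjusted p = 1.82e-14) and -0.45 ± 0.14 with IL-10 (adjusted p = 0.0136). Trafd1 changed by -0.65 ± 0.09 with JQ1 (adjusted p = 2.30e-13). Of 10 NF-kB-driven cytokines and chemokines, JQ1 lowered all 9 with an adjusted p (median -2.01) and IL-10 lowered 7 of these (median -1.59), beside 32.9% and 8.81% of all tested genes. Ccl5, the remaining one, had no adjusted p and is named here after its values were seen. The named ones were Il6 at -4.88 ± 0.42, Il12b at -4.24 ± 1.00 and Il1a at -4.09 ± 0.56 with JQ1.

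**Figure D4:**
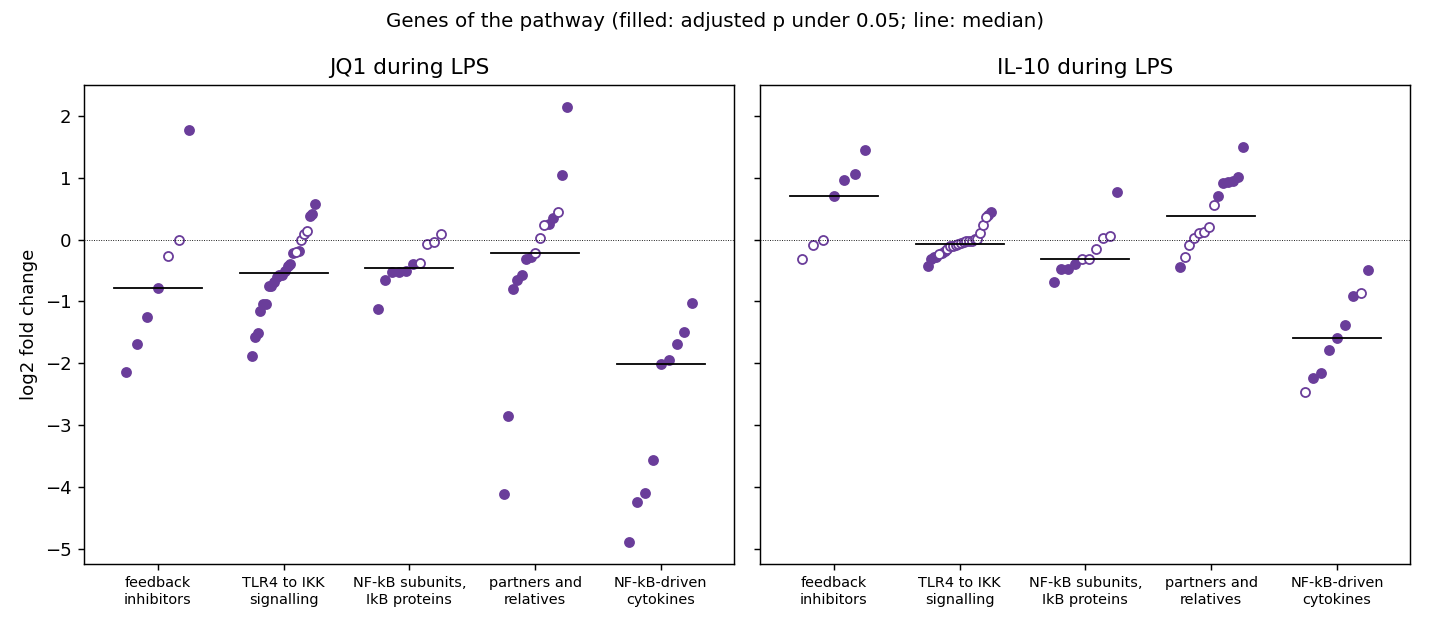
Log2 fold change of genes of the feedback inhibitors and of the 4 pathway lists by JQ1 (left) and IL-10 (right) during LPS. Each point is 1 gene, filled where the adjusted p was under 0.05, and the line is the median of the genes shown. Sigirr is left out, as are list genes without an adjusted p (Ccl5 in both panels, Il1rl1 with IL-10). The cytokine list lies lowest in both panels, with medians of -2.01 and -1.59, while IL-10 values of the feedback inhibitors reach 1.45.

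Across the 18 libraries the 7 detected genes were not equally alike. The Pearson correlation of log2(normalised count + 1) between pairs of them ran from 0.19 (Nfkbid and Ier3) to 0.98 (Tnip1 and Irak3). The points of every pair are the same 18 libraries and include both cells with and without LPS. Among 8371 genes with a mean of at least 100 normalised counts, the gene outside the list with the most similar pattern was Dtx3l for Tnfaip3 (r = 0.998), Sde2 for Tnip1 (0.993), Slc39a14 for Irak3 (0.990), Ptbp3 for Cyld (0.994), Gna15 for Nfkbid (0.994), Fhl3 for Tnip3 (0.978) and H3f3a for Ier3 (0.967). Likeness of pattern does not mean likeness of size. Dtx3l changed by 3.81 on the log2 scale with LPS, beside 6.30 for Tnfaip3, and Gna15 by -3.40 with JQ1 during LPS, beside -2.14 for Nfkbid. Slc39a14 was raised by IL-10 during LPS by 1.49 and lowered by JQ1 by a log2 fold change of -1.27, the directions seen for Irak3. It was picked for its likeness over these same libraries, so the shared directions are no separate result.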

How the data were processed

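Libraries were stranded and depleted of ribosomal RNA by the authors, who aligned the reads with STAR to mouse build mm9 and counted genes with RSEM 1.2.31 under default settings, that is, without regard to strand. Expected counts, as deposited, divide a read that matches several genes among them, and were rounded for the tests. TPM, as deposited, is the authors' relative abundance per transcript length, and the effective lengths served as an offset in 1 alternative. FPKM was left out. Irak3 overlaps Tmbim4 by 541 bases and Tnip1 overlaps the pseudogene Gm12230 by 454, each on the opposite strand.

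The DESeq2 1.42.0 Wald test (R 4.3.3) was fitted to all 24485 genes in all 18 libraries by group alone, with median-of-ratios normalisation and independent filtering. The p-values were adjusted after Benjamini and Hochberg over all tested genes in each of 11 comparisons, and an adjusted p under 0.05 was called a change. An interaction is the effect of LPS with a pretreatment minus its effect without. Intervals are 95% Wald intervals, ± is SE for log2 fold changes and SD for levels (n = 3). The 14 alternatives included edgeR 4.0.16, limma 3.58.1 on log2(TPM + 1), other scalings, a low-count filter, lane or replicate as a term, and leaving out each replicate. The fits were tested on simulated data.

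The series describes its samples as biologically matched and its bone marrow as that of 3 mice, but the titles give a replicate number and name no mouse. Same-numbered libraries were taken as pairs on this basis only for the replicate block and for comparisons by replicate number. The main tests, by group alone, used no pairs. The correlation of the deviations of same-numbered libraries, averaged over the 3 pairs, ran from -0.06 to 0.34 over the 9 comparisons of one group with another. Replicates of a group differed by a chi-square per degree of freedom of 3.97 to 28.3, above sampling noise. Depth was 6781952 to 28289498 counts, and the floor of 3 counts covers counting error only. The 8 genes and the pathway and marker lists were chosen with earlier results of these data known. Named beside them were Il10, the most correlated gene for each, and up to 3 genes per list with the largest called change by JQ1 during LPS and a mean of at least 100 normalised counts. Gene positions are from GENCODE vM1 on mm9.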

Additional observations from a re-analysis of the deposited data

Results flagged for a closer look

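The effect of LPS differed with the pretreatment for 5 of the 8 genes by the test of the difference itself, the interaction term of DESeq2 over all 18 libraries. Of all tested genes, 41.5% passed this test for JQ1, with 23.8% below 0 and 17.7% above. For IL-10, 7.44% passed and 4.00% were above 0. The JQ1 term was -0.62 on the log2 scale for Tnfaip3 (adjusted p = 0.00172), -1.08 for Tnip1 (adjusted p = 1.48e-08), 2.06 for Tnip3 (adjusted p = 1.29e-12), -1.02 for Irak3 (adjusted p = 4.41e-08) and -1.15 for Nfkbid (adjusted p = 1.25e-06). The IL-10 term was 0.80 for Tnip1 (adjusted p = 0.000310), 1.80 for Tnip3 (adjusted p = 4.28e-09) and 0.82 for Irak3 (adjusted p = 7.96e-05). The direction was the same for all 3 replicate numbers in each of the 8 terms. The Tnfaip3 term lost its call under total-count scaling (-0.07, adjusted p = 0.762) and by limma on log2(TPM + 1) (-0.23, adjusted p = 0.309), and the Irak3 term for IL-10 lost it without replicate 2 (0.67, adjusted p = 0.0948).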

How the results depend on the processing

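The numbers of the 8 genes called stayed within 1.5 times of those reported in all 154 combinations of comparison and alternative. Of 1078 values of single genes, 1035 kept direction and side of the threshold, 4 lost and 11 gained a call, and 28 changed sign, none of them past the threshold. With the replicate block, Nfkbid with IL-10 during LPS became called (-0.32, adjusted p = 0.0117), Tnip3 with JQ1 during LPS was 0.019 (0.012 with lane added), and the block changed no other call. With lane alone as a term, Nfkbid with IL-10 during LPS was called too (-0.32, adjusted p = 0.0298). Tnip3 with JQ1 during LPS was also 0.11 with TMM factors, 0.37 with total-count scaling, 0.094 with only the groups compared, 0.096 with edgeR, 0.32 with limma on TPM and -0.16 to 0.19 without 1 replicate. Under total-count scaling and limma on TPM, Cyld was 0.11 and 0.048 (JQ1 during LPS), 0.0071 and 0.020 (IL-10 during LPS), 0.11 and 0.028 (JQ1 against IL-10), 0.33 and 0.27 (interaction with JQ1) and 0.054 and 0.013 (interaction with IL-10). Under the same settings Tnfaip3 with IL-10 during LPS was 0.081 and 0.096 (0.00059 with TMM factors), and the Nfkbid interaction with IL-10 was 0.043 under total-count scaling. Cyld with IL-10 alone was 0.0071 by limma on TPM. Without 1 replicate, Cyld was -0.083 to 0.019 with JQ1 alone, -0.37 to 0.00070 for the interaction with JQ1 and -0.083 to 0.028 for that with IL-10. Likewise, the Ier3 interaction with JQ1 was -0.0082 to 0.26 and the Nfkbid interaction with IL-10 was -0.24 to 0.096. The cause was not tested. Counts over all genes moved by over 1.5 times for JQ1 alone (6248, and 4050 without replicate 1), IL-10 alone (358, with 130 to 196 without 1 replicate, 230 with edgeR and 171 with limma), IL-10 during LPS (1968, with 874 to 1250 without 1 replicate and 1089 with only the groups compared), and the interactions with JQ1 (5279, and 3471 without replicate 1) and IL-10 (804, with 291 to 471 without 1 replicate). Depth limits Sigirr, at 0 to 11 counts.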
